A study of Homo sapiens with 18 samples.

Results

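In the human melanoma line A375M2, 10 genes stood at the ends of the ranking when cells carrying a PMEL vector were compared with cells carrying GFP. UTS2, MGST1, EMX2, LY75 and ABCB4 were higher with PMEL, and ARHGAP20, CPED1, ZNF385B, OLFML3 and NPTX1 were lower. They were chosen for their size in that comparison, so their differences in it are given as a description with no test. The 10 genes are 10 of 10940 genes measured and are read by 15 probe sets of 23416. All 10 passed the filter on low values, which asked for a log2 signal of 4 or more in at least 3 of 18 arrays.

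The series holds 18 Affymetrix 3′ expression arrays in 6 groups of 3, each a log2 signal per probe set. A375M2 GFP cells express GFP from a lentiviral vector. A375M2 PMEL cells carry a lentivirus in which a CMV promoter drives full-length PMEL with a His tag, followed by an IRES and eGFP, under blasticidin selection. A375M2 shFHL2 cells carry a pool of 3 shRNA constructs against FHL2 under puromycin selection, and A375M2 shNFYA cells carry shRNA against NFYA, with no construct or selection described in the labels. C32, a second melanoma line, is represented by C32 GFP and C32 shFHL2. Cells with the highest GFP were sorted after selection, so a group with a described selection is a selected, transduced population that expresses a fluorescent protein. For groups without one, selection and sorting are not known. The labels name a GFP vector for PMEL and another for shRNA and do not say which one the GFP arrays hold, and no group carries a non-targeting shRNA. The A375M2 samples came from 3 separate experiments, and their cell line field reads A375. For C32 no separate cultures are described, and p-values then measure only the spread between these samples, which may be technical.

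PMEL is the premelanosome protein, whose processed fragments assemble into the amyloid fibrils on which melanin is laid down in melanosomes. FHL2 is a LIM-domain cofactor of transcription factors, and NFYA is the DNA-contacting subunit of NF-Y, the factor that binds CCAAT boxes. The genes that were higher with PMEL encode a vasoactive peptide (UTS2), a membrane-bound glutathione transferase (MGST1), a homeobox transcription factor of forebrain and urogenital development (EMX2), an endocytic receptor best known on dendritic cells (LY75) and a transporter that moves phosphatidylcholine across the membrane of bile canaliculi (ABCB4). Those that were lower are ARHGAP20 and genes that encode a protein with a cadherin-like and a PC-esterase domain (CPED1), a zinc-finger protein (ZNF385B), a secreted olfactomedin-domain glycoprotein (OLFML3) and a secreted neuronal pentraxin (NPTX1).

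RefSeq promoter windows (GRCh38.p14, from 250 bases before to 50 after each start) were found for 7 of the 10 genes, 15 windows in all. ABCB4, ARHGAP20 and NPTX1 had none. The 250 bases before the start are printed for 1 of the 2 windows of UTS2, the largest rise, for EMX2, a gene present in C32 and low in A375M2, and for OLFML3, the gene with the largest change in C32. UTS2 lies at chr1:7853492-7853741 on the minus strand, EMX2 at chr10:117542496-117542745 on the plus strand and OLFML3 at chr1:113979224-113979473 on the plus strand. Capitals mark motif letters found by search on both strands.
UTS2: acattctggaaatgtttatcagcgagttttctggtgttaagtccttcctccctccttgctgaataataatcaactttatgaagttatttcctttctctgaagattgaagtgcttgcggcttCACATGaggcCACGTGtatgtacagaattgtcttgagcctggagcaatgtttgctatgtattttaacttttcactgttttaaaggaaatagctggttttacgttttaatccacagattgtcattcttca
EMX2: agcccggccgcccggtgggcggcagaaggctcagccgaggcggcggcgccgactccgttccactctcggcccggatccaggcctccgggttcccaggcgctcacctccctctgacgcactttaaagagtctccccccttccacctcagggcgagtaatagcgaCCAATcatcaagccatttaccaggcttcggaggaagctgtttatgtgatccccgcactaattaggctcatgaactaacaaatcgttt
OLFML3: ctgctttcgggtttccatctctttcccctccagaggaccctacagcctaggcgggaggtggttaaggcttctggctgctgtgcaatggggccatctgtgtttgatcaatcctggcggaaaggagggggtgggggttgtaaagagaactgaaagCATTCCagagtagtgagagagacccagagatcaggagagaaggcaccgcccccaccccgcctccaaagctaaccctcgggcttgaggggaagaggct
In the printed UTS2 window the capitals are CACATG, the reverse complement of the E-box form searched as CATGTG, and then the E-box CACGTG. MITF is known to bind these forms. The other UTS2 window, not printed, holds CCAAT and neither of these E-boxes. In the EMX2 window they are CCAAT, the motif of NF-Y. In the OLFML3 window they are CATTCC, the reverse complement of the TEAD motif searched as GGAATG. The NF-Y motif CCAAT was found in 7 of the 15 windows of these genes and in 34.6% of all 35116 windows. The motif CACGTG was found in 1 of the 15 (7.26% of all windows) and CATGTG in 1 (11.1%). For TEAD, GGAATG was found in 2 (14.0%), and the AP-1 motif TGACTCA was found in 1 (4.95%). A match is a description of letters and not of binding.

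Before the results, the arrays were compared with each other. C32 GFP replicate 3 lay within an SD of 0.00746 of the mean of C32 GFP replicates 1 and 2, against 0.10474 to 0.16102 for the other arrays, and it was left out, which leaves 17 arrays. Replicate 3 of A375M2 GFP and of A375M2 PMEL deviated from replicates 1 and 2 in opposite directions with nearly equal size (r = -0.998 over 16899 probe sets, across probe sets and not replicates). The sum of these 2 deviations had an SD of 0.00628, against 0.113 for each. Whether the replicate 3 arrays are independent of replicates 1 and 2 is thus in doubt, and SEs and p-values that use them may be too small. Both were kept. The differences between PMEL and GFP are given for replicates 1 and 2 and for replicate 3 apart, the latter not as a separate check. Exactly equal values were shared by 537 probe sets within the pair of replicate 3 arrays and by 0 between that pair and replicates 1 and 2. Between the A375M2 GFP and PMEL arrays and the A375M2 shRNA arrays 0 were shared. The A375M2 GFP and PMEL arrays thus fall into 2 sets that both groups share, and the A375M2 shRNA arrays, which share 306 to 923 such values with each other, into another. A difference between A375M2 shRNA and A375M2 GFP arrays cannot be told apart from a difference between sets.

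The targeted genes followed the labels. PMEL stood at log2 5.78, 5.37 and 5.55 in the A375M2 GFP arrays and at 9.0, 8.88 and 8.96 in the PMEL arrays (difference 3.38, SE 0.126, limma adjusted p = 1.58e-12). By limma against the GFP arrays of each line, FHL2 fell by 4.04 in A375M2 shFHL2 (adjusted p = 1.6e-14) and fell by 5.24 in C32 shFHL2 (adjusted p = 2.43e-14). NFYA fell by 2.06 in A375M2 shNFYA (limma adjusted p = 4.29e-13). It was lower in the A375M2 shFHL2 arrays too, where it fell by 0.73 (adjusted p = 1.04e-06, limma). Its other probe sets were lower there as well. In the most changed of them the mean was 8.49 in A375M2 GFP, 6.53 in A375M2 shFHL2 and 5.02 in A375M2 shNFYA. PMEL itself fell by 2.22 in A375M2 shFHL2, fell by 2.32 in A375M2 shNFYA and fell by 3.54 in C32 shFHL2 (limma adjusted p = 1.23e-11, 5.31e-12 and 6.58e-13). It was under log2 4 in both A375M2 shRNA arms, where each difference was -1.57 with values under 4 set to 4. For the A375M2 shRNA arms, all these differences from GFP carry the limit of array sets given above. Of 7 measured melanocytic markers, 6 were at log2 4 or more in A375M2 GFP (MLANA was not), 7 in C32 GFP, 3 in A375M2 shFHL2 and 4 in A375M2 shNFYA.

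UTS2 encodes the precursor of urotensin II. Its log2 signal was 9.33, 9.19 and 9.11 in the A375M2 GFP arrays and 13.86, 13.84 and 13.99 in the PMEL arrays. The difference was 4.69 (SE 0.083, n = 3 and 3), a 25.8-fold higher signal, and it was the largest rise of all genes, ahead of PMEL. It was 4.59 in replicates 1 and 2 and 4.88 in replicate 3. In all other groups every UTS2 array stood at 2.24, the low end of the scale, so its signal was present in the A375M2 GFP and PMEL arrays alone.

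MGST1 protects membranes by conjugating glutathione to reactive compounds. It stood at 7.39, 7.16 and 7.42 with GFP and at 9.52, 9.46 and 9.35 with PMEL, a difference of 2.12 (SE 0.0742, 4.35-fold). It was 2.22 in replicates 1 and 2 and 1.93 in replicate 3. Its other 2 probe sets gave 2.19 and 2.20. In the shRNA arms it was higher still, at 12.46, 12.49 and 12.54 with shFHL2 and at 12.20, 12.18 and 12.06 with shNFYA, while in C32 all arrays stood between 2.36 and 2.44. MGST1 was thus the only one of the 10 genes higher than A375M2 GFP in all of the PMEL, shFHL2 and shNFYA arms.

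EMX2 was at 2.88, 3.09 and 3.07 with GFP and at 4.84, 5.38 and 5.03 with PMEL. The difference of 2.07 (SE 0.135) started from a signal under log2 4, and was 1.09 when values under 4 were set to 4. It was 2.13 in replicates 1 and 2 and 1.96 in replicate 3. In C32 GFP it was far higher, at 8.55 and 8.34. LY75's own probe set stood at 3.12, 3.91 and 3.92 with GFP and at 5.65, 5.64 and 5.19 with PMEL, a difference of 1.85 (SE 0.171). That difference was 2.14 in replicates 1 and 2 and 1.26 in replicate 3. A second probe set annotated to LY75, CD302 and their readthrough transcript stood at 10.66 with GFP and 10.60 with PMEL, a difference of -0.06, so the probe sets disagree.

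ABCB4 stood at 4.39, 4.36 and 4.70 with GFP and at 6.59, 6.33 and 6.11 with PMEL, a difference of 1.86 (SE 0.128). It was 2.08 in replicates 1 and 2 and 1.42 in replicate 3. A probe set shared by ABCB4 and ABCB1 differed by 0.75 in the same direction.

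Among the genes that were lower, ARHGAP20 went to the low end of the scale. It was at 6.81, 6.99 and 6.96 with GFP and at 2.99, 2.66 and 2.78 with PMEL, a difference of -4.11 (SE 0.109, 17.3-fold). CPED1 stood at 6.60, 7.02 and 6.86 with GFP and at 2.82, 3.08 and 2.90 with PMEL, a difference of -3.89 (SE 0.114). Its other probe set differed by -5.32. ZNF385B was at 7.17, 7.10 and 7.33 with GFP and at 3.54, 3.26 and 3.18 with PMEL, a difference of -3.87 (SE 0.107). For these 3 genes the PMEL arrays lay under log2 4, and with values under 4 set to 4 the differences were -2.92, -2.82 and -3.20. In replicates 1 and 2 and in replicate 3 the differences were -4.08 and -4.18 for ARHGAP20, -3.86 and -3.95 for CPED1, and -3.73 and -4.15 for ZNF385B.

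OLFML3 and NPTX1, both secreted proteins, were lower and still well measured with PMEL. OLFML3 stood at 9.59, 9.79 and 9.57 with GFP and at 6.27, 6.41 and 6.47 with PMEL, a difference of -3.27 (SE 0.138, 9.63-fold). NPTX1 stood at 10.87, 10.74 and 10.84 with GFP and at 7.61, 7.81 and 7.68 with PMEL, a difference of -3.12 (SE 0.105, 8.68-fold). In replicates 1 and 2 and in replicate 3 the values were -3.35 and -3.10 for OLFML3 and -3.10 and -3.16 for NPTX1. For all 10 genes the GFP and PMEL arrays did not overlap, and nothing is read from this because the genes were chosen on this contrast. In these bulk cultures, a lower signal in every cell and fewer cells with the transcript cannot be told apart.

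**Figure D1:**
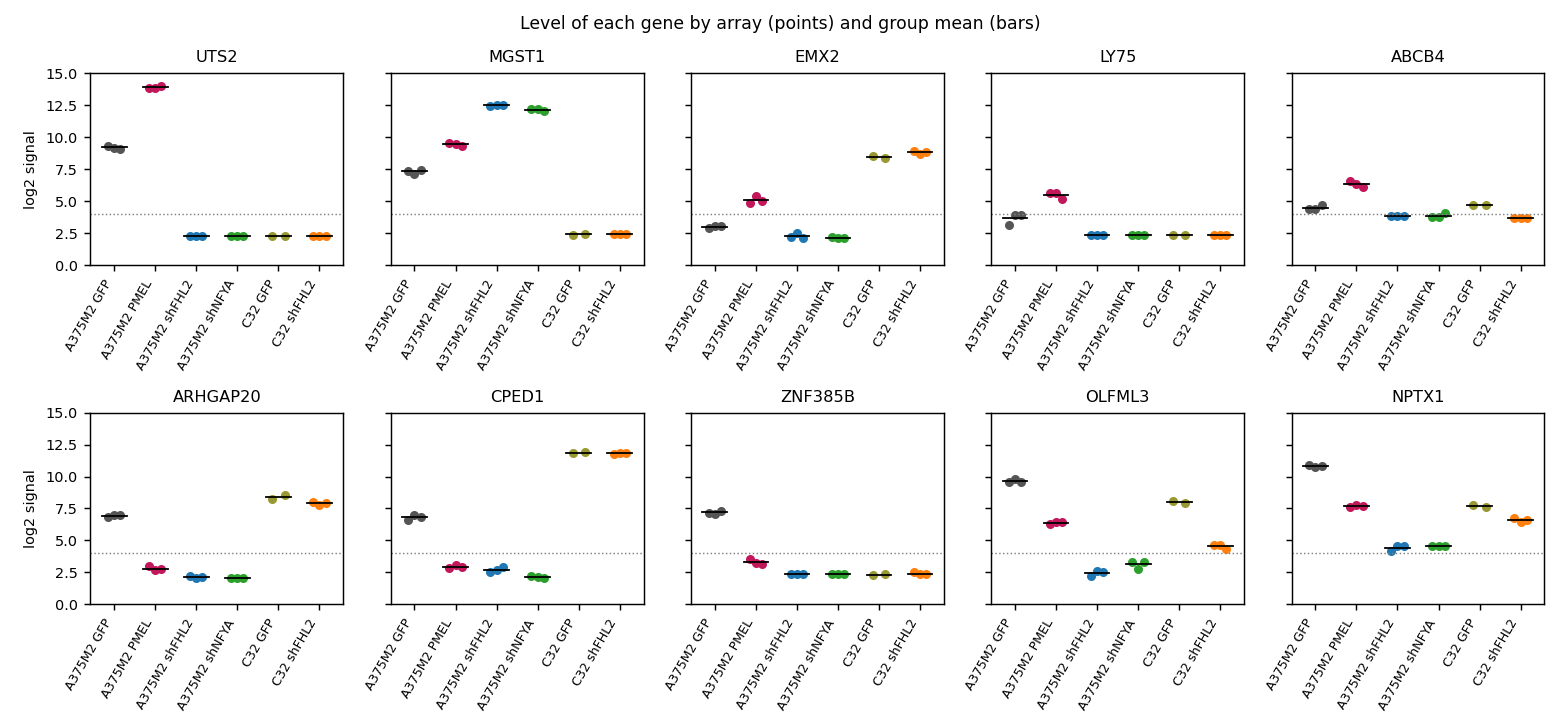
Log2 signal (vertical axis) of each of the 10 genes in every array (points) of the 6 groups, with group means as bars and log2 4 dotted, C32 GFP replicate 3 left out. UTS2 stands at 2.24 in every array outside A375M2 GFP and PMEL, and MGST1 is highest in the A375M2 shRNA arms.

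Among all genes tested, 57 (0.521%) were at least 2-fold higher with PMEL and 177 (1.62%) at least 2-fold lower. The 10 genes were chosen from these, so no result is read from that share. UTS2, MGST1, EMX2, ABCB4 and LY75 took ranks 1, 3, 4, 6 and 7 of the rises, with PMEL and LDB2 (1.87) between them and UBAP1L (1.82) just outside. ARHGAP20, CPED1, ZNF385B, OLFML3 and NPTX1 took ranks 1 to 5 of the falls, and CNTNAP4 (-3.09) came next. Of 6 measured fibroblast markers, 4 were at log2 4 or more in both groups, with array means over the list of 6.82 to 6.87 with GFP and 6.02 to 6.07 with PMEL, and DCN and COL1A2 were under 4 in both. LUM, a fibroblast proteoglycan, was at 11.11 with GFP and 9.08 with PMEL, and endothelial KDR at 6.83 and 5.56. Haematopoietic PTPRC was at 2.27 in both. The 18S control probe sets stood at 12.52 ± 0.03 with GFP and 11.08 ± 0.02 with PMEL (SD, n = 3). The part of these in the differences was not tested.

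**Figure D2:**
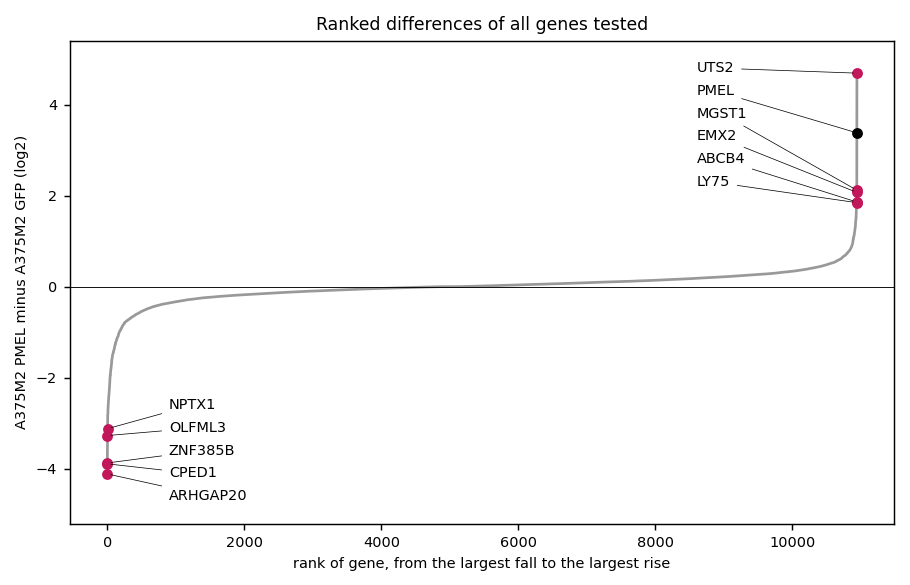
Difference between A375M2 PMEL and GFP (log2, vertical axis) of all 10940 genes by rank (horizontal axis), with the 10 genes in red and PMEL in black. UTS2 at 4.69 lies above PMEL at 3.38, and the 5 lower genes lie between -4.11 and -3.12.

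The shRNA arms and C32 GFP share the A375M2 GFP arrays with the comparison that chose the genes, so their differences from those arrays are given side by side with no test. In A375M2 shFHL2, 9 of 10 genes were lower than A375M2 GFP, 7 of them at least 2-fold (16.2% of all genes), and MGST1 was the 1 gene at least 2-fold higher (15.2% of all genes). The median difference was -4.44, against -0.04 over all genes. The differences were -7.19 for OLFML3, -6.97 for UTS2, -6.37 for NPTX1, -4.84 for ZNF385B, -4.78 for ARHGAP20, -4.11 for CPED1, -1.26 for LY75 and 5.17 for MGST1. EMX2 (-0.73) and ABCB4 (-0.66) differed by less than 2-fold. All of the lower genes but NPTX1 stood under log2 4 in this arm, by the probe set taken for each. With values under 4 set to 4 the differences were -5.65 for OLFML3, -5.21 for UTS2, -3.20 for ZNF385B, -2.92 for ARHGAP20, -2.82 for CPED1 and 0 for LY75, so that NPTX1, still -6.37, was the largest.

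In A375M2 shNFYA the counts were the same, with 7 at least 2-fold lower (18.5% of all genes) and 1 at least 2-fold higher (17.3%), and the median was -4.75 against 0.00 over all genes. The differences were -6.97 for UTS2, -6.52 for OLFML3, -6.23 for NPTX1 and 4.82 for MGST1. With values under 4 set to 4, UTS2 was at -5.21 and OLFML3 at -5.65, and NPTX1, still -6.23, was the largest of the lower genes. Hence the 5 genes that were lower with PMEL were also lower in both shRNA arms, and UTS2, EMX2, LY75 and ABCB4, higher with PMEL, were lower there. By the probe set taken for each gene, 8 of the 10 genes were under log2 4 in both shRNA arms, where 4.77% of all genes were. Nothing is read from that share. The probe set annotated to LY75, CD302 and their readthrough transcript stood at 9.41 with shFHL2 and 8.39 with shNFYA, against 10.66 in A375M2 GFP. The probe set shared by ABCB4 and ABCB1 stood at 6.82 and 6.28, against 7.24. UTS2, LY75 and ZNF385B passed the filter on low values only through A375M2 GFP or PMEL arrays, the groups that chose the genes. EMX2 and LY75 were under 4 in A375M2 GFP too, so their differences in the shRNA arms rest on low signals. NPTX1 was still measured, at 4.44 with shFHL2 and 4.59 with shNFYA. Beside these values, the 18S probe sets stood at 14.18 ± 0.07 with shFHL2 and 14.19 ± 0.11 with shNFYA (SD, n = 3). Array means over the 6 measured fibroblast markers ran from 5.03 to 5.07 and from 5.11 to 5.21. Over the 2 measured haematopoietic markers they ran from 5.75 to 5.83 and from 5.73 to 5.85, against 2.93 to 3.14 in A375M2 GFP, with PTPRC under log2 4 in all these groups. Over the 2 measured keratinocyte markers they ran from 8.27 to 8.35 and from 9.03 to 9.30, against 7.27 to 7.40. KRT14 in that list was at 2.97 with shFHL2 and 5.08 with shNFYA, against 2.49 in A375M2 GFP. In the fibroblast list COL1A1 was higher in both arms, at 7.05 and 6.78, against 5.77 in A375M2 GFP. The actin 3′ minus 5′ difference was 1.07 ± 0.08 and 1.19 ± 0.08, against 0.61 ± 0.13 in A375M2 GFP (SD, n = 3). Their part in the differences was not tested.

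In C32 GFP, 3 genes were at least 2-fold higher than in A375M2 GFP (18.3% of all genes) and 6 at least 2-fold lower (24.8%), with a median of -1.44 against -0.10. Replicates 1 and 2 of A375M2 GFP and PMEL shared 0 equal values with the C32 arrays. A difference between these lines thus cannot be told apart from a difference between sets. EMX2 was higher by 5.43 (4.44 with values under 4 set to 4), CPED1 by 5.04 (2.45 by its other probe set) and ARHGAP20 by 1.5. UTS2, MGST1, LY75 and ZNF385B stood under log2 4, and OLFML3 and NPTX1 were at 8.02 and 7.67.

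The C32 arms share no array with the comparison that chose the genes, so the effect of FHL2 shRNA in C32 was tested. By limma, 5 of 10 genes passed (62.6% of all genes did), a share near the background. OLFML3 stood at 8.08 and 7.96 in C32 GFP and at 4.65, 4.65 and 4.36 in C32 shFHL2. It fell by 3.47 (SE 0.154, 11.1-fold, adjusted p = 2.8e-12), and over the alternatives the difference ran from -3.53 to -3.38. NPTX1 went from 7.76 and 7.58 to 6.72, 6.46 and 6.57 and fell by 1.09 (SE 0.117, limma adjusted p = 2.8e-07).

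ABCB4 fell by 1.04 (SE 0.143, limma adjusted p = 5.3e-06), from 4.70 and 4.72 to 3.65, 3.65 and 3.69, and the probe set shared with ABCB1 fell by 1.44 (adjusted p = 1.35e-07). ARHGAP20 fell by 0.52 (SE 0.122, limma adjusted p = 0.00126), from 8.27 and 8.57 to 7.99, 7.78 and 7.94. EMX2 rose by 0.36 (SE 0.151, limma adjusted p = 0.0444), from 8.55 and 8.34 to 8.89, 8.70 and 8.83. This call was lost in 9 of 28 alternatives, over which the adjusted p ran from 0.013 to 0.264. Without A375M2 GFP replicate 3 it was 0.0523, without A375M2 PMEL replicate 3 it was 0.053, without C32 GFP replicate 2 it was 0.264, and without C32 shFHL2 replicate 1 or 3 it was 0.11 or 0.0873.

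CPED1, measured well above log2 4 in C32, differed by -0.06 (SE 0.127, limma adjusted p = 0.714). UTS2, MGST1, LY75 and ZNF385B were under log2 4 on both sides, where no difference is measurable. At 2-fold or more, 3 of 10 genes changed (8.56% of all genes), namely OLFML3, NPTX1 and ABCB4, all lower. ABCB4 lay under log2 4 in C32 shFHL2, and with values under 4 set to 4 its difference was -0.71, under 2-fold. The poly-A spike-in probe sets stood at 9.06 ± 0.30 (SD, n = 2) in C32 GFP and 5.61 ± 0.05 (SD, n = 3) in C32 shFHL2, and the 18S probe sets at 13.28 ± 0.13 and 13.94 ± 0.10. Of the endothelial list only KDR was measured, at array levels of 10.15 to 10.21 in C32 GFP and 7.75 to 7.88 in C32 shFHL2. Haematopoietic PTPRC was at 8.63 in C32 GFP and 7.80 in C32 shFHL2, and LYZ at 3.70 and 5.69. Array means over the 7 measured melanocytic markers ran from 12.66 to 12.75 and from 10.46 to 10.50. Over the 6 measured fibroblast markers they ran from 6.26 to 6.44 and from 6.37 to 6.43. The part of these in the changes was not tested.

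The shFHL2 and shNFYA arms of A375M2 were compared with each other by limma, and 3 of 10 genes passed (70.1% of all genes did). By the probe set taken for each gene, 8 of the 10 stood under log2 4 in both arms, which limits this count. MGST1 was higher with shFHL2 by 0.35 (SE 0.0742, adjusted p = 0.000444), and all 3 of its probe sets passed. CPED1 (0.56) and OLFML3 (-0.67) passed as well, but their arrays lay under log2 4 in both arms and both differences were 0 with values under 4 set to 4. CPED1's other probe set differed by 0.04. The probe set annotated to LY75, CD302 and their readthrough transcript was higher with shFHL2 by 1.02 (limma adjusted p = 1.02e-09). The probe set shared by ABCB4 and ABCB1 was higher with shFHL2 by 0.54 (limma adjusted p = 0.00127). NPTX1, measured in both arms, differed by -0.15 (SE 0.105, adjusted p = 0.222).

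The last comparison shares its arrays with the comparisons in C32 and between the shRNA arms. Between C32 shFHL2 and A375M2 shFHL2, 6 of 10 genes passed by limma (90.2% of all genes did). The A375M2 shRNA arrays shared 38 to 50 equal values with the C32 arrays kept, against 306 to 923 among themselves. Whether both lines belong to the same array set is not known, so these differences may hold a difference between sets. MGST1 in C32 differed by -10.05 (adjusted p = 1.91e-24), and CPED1, EMX2 and ARHGAP20 were higher by 9.09, 6.52 and 5.76. For each of these 4 genes the lower group stood under log2 4, and with values under 4 set to 4 the differences were -8.50, 7.80, 4.81 and 3.90. NPTX1 and OLFML3 were higher by 2.14 and 2.09. OLFML3 was at 2.46 in A375M2 shFHL2 and was higher by 0.55 with values under 4 set to 4. UTS2, LY75, ABCB4 and ZNF385B were under log2 4 in both groups, by the probe set taken for each. The probe set annotated to LY75, CD302 and their readthrough transcript differed by -7.22, and that shared by ABCB4 and ABCB1 by -1.78.

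**Figure D3:**
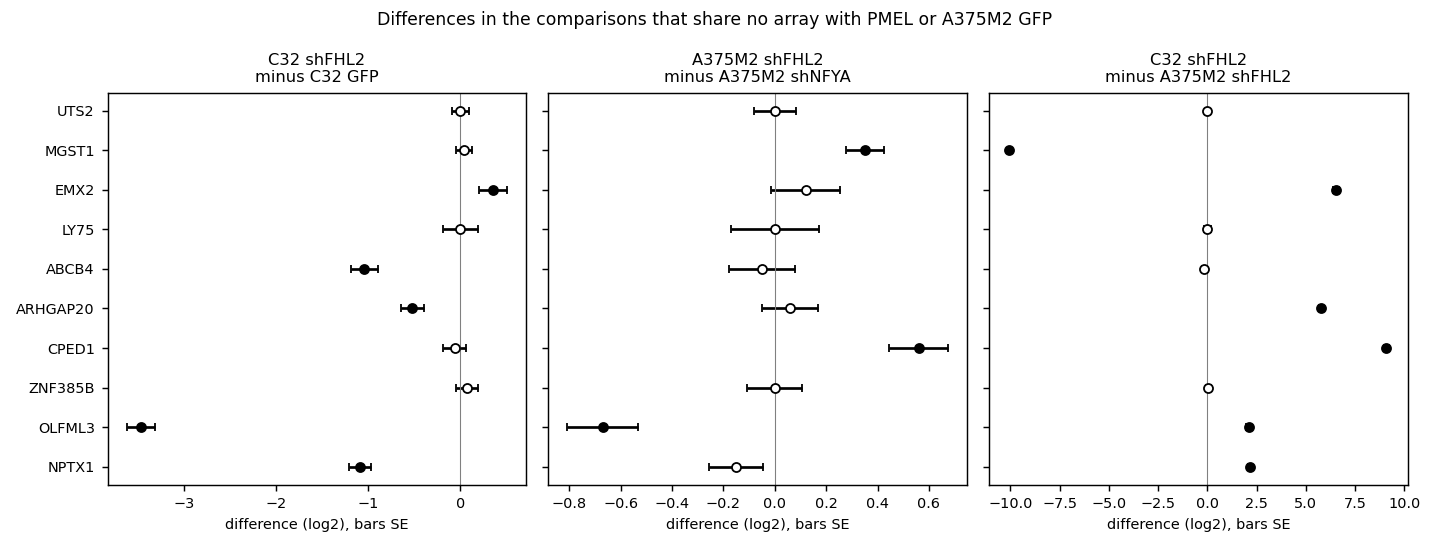
Difference (log2, horizontal axis) of each gene in the comparisons that share no array with A375M2 PMEL or GFP, with SE bars, filled points where limma's adjusted p was under 0.05. OLFML3 at -3.47 stands apart in C32, and the horizontal scale differs between panels.

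Relatives of the 10 genes were taken from family lists, with a list of melanosome genes that are relatives of none of them, and 100 of 176 listed genes were measured. With PMEL against GFP, 40 of these passed by limma (40.0%, against 39.9% of all genes), 13 higher and 27 lower, with a median of -0.04 against 0.02. Differences ran from -1.62 to 1.51, the latter in the melanosome list and the highest of a relative being 1.08, and 4 were at least 2-fold, 1 of them in the melanosome list. Leaving out single arrays gave 33 to 41 passing, and leaving out replicate 3 of both groups gave 31.

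Among vasoactive peptides and receptors, 0 of 4 measured genes passed, with 1 of 4 at an unadjusted p under 0.05 by limma. EDNRB, the endothelin receptor of melanocytes, differed by -0.04. Of 19 glutathione genes 3 were higher and 8 lower. GPX7, an ER peroxidase, fell by 1.25 (adjusted p = 2.07e-08), GSTT1, a theta-class transferase, rose by 1.08 (adjusted p = 0.000136) and GPX3, a secreted peroxidase, fell by 0.69 (adjusted p = 0.00148). Of 9 homeobox genes 1 passed, DLX2, which fell by 0.65 (adjusted p = 2.26e-07).

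Of 4 lectins measured, 3 fell, the largest being CLEC11A, a secreted growth factor of the C-type lectin family, by 1.62 (adjusted p = 1.33e-09). Of 14 ABC transporters 2 rose and 1 fell, with ABCC5 at 0.41 and ABCB5 at -0.40.

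Of 6 ZNF385 and ZMAT genes 1 rose and 1 fell, ZMAT3 by 0.11 and ZFR by 0.08. Of 4 olfactomedin-domain genes 2 rose, OLFML2A by 0.41 and ADGRL1 by 0.35, opposite in sign to OLFML3. Of 4 pentraxins and AMPA receptor subunits 0 passed by limma, and 0 had an unadjusted p under 0.05. Of 11 melanosome genes 3 rose and 2 fell. GPR143, the melanosomal receptor mutated in ocular albinism, rose by 1.51 (adjusted p = 2.37e-10), and TYRP1 fell by 0.58.

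The nearest measured gene on each side of the 10 genes, 20 neighbours in all, gave 9 passing by limma (45.0%, against 39.9% of all genes), 3 higher and 6 lower, and 8 passed without replicate 3 of both groups. FDX1, a mitochondrial electron carrier beside ARHGAP20 on chromosome 11, fell by 0.85 (adjusted p = 7.61e-12). RPTOR, an mTOR complex subunit beside NPTX1 on chromosome 17, fell by 0.69, and PLEKHA5, beside MGST1 on chromosome 12, rose by 0.55. PER3 and TNFRSF9 beside UTS2 differed by 0.06 and 0.00. No neighbour reached 2-fold. Only the nearest measured genes were looked at, so a change over a longer stretch of a chromosome was not tested.

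**Figure D4:**
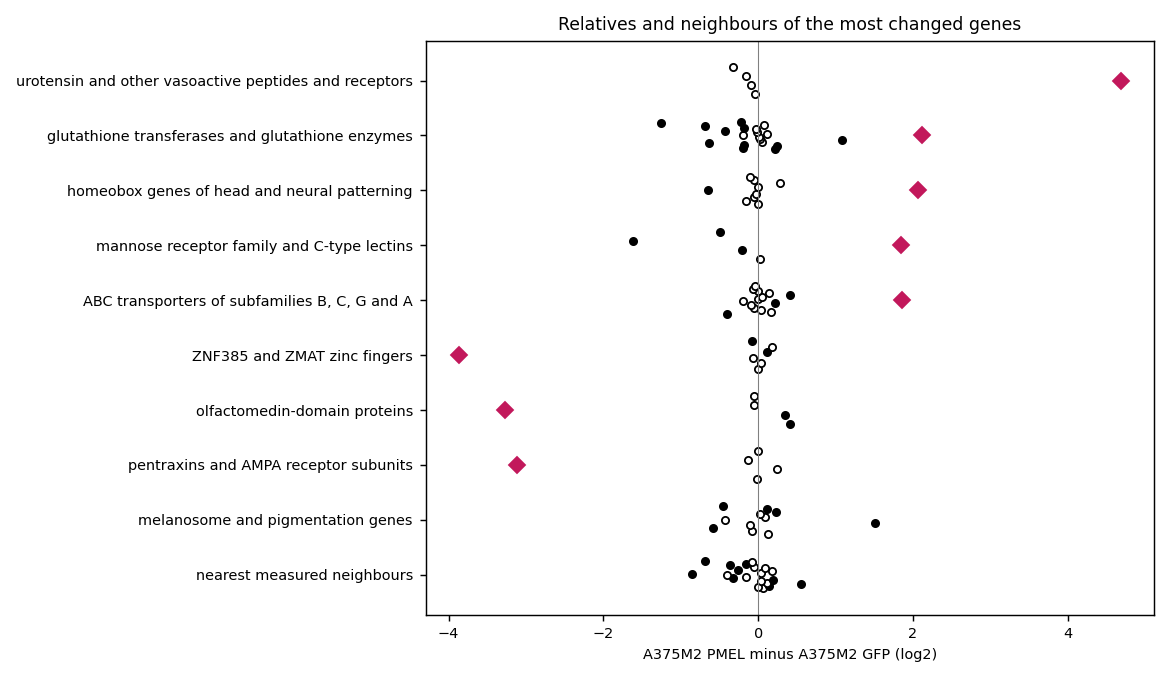
Difference between A375M2 PMEL and GFP (log2, horizontal axis) of family members, melanosome genes and nearest neighbours (circles, filled where limma's adjusted p was under 0.05), with the most changed gene of each family as a red diamond. The family members shown lie between -1.62 and 1.08, the melanosome genes reach 1.51, and ARHGAP20 and CPED1 have no family row.

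Over the 17 arrays, the genes whose log2 values followed UTS2 most closely were LINC01549 (r = 0.9907), SARS2 (r = 0.9878) and GREB1L (r = 0.9868). LINC01549 had group means of 4.52 with GFP and 5.94 with PMEL and 2.56 to 2.72 elsewhere. ARHGAP20 was followed by MLH3 (r = 0.9716), DNAI3 (r = 0.9658) and PCYOX1 (r = 0.9614). DNAI3 was at 5.99 with GFP, 3.50 with PMEL, 2.17 and 2.18 in the A375M2 shRNA arms, and 7.55 and 8.83 in C32 GFP and C32 shFHL2. These correlations are descriptions over arrays that fall into 6 groups, with no test.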

How the data were processed

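RNA of 18 samples was measured on Affymetrix 3′ arrays. The deposited values are log2 signals that the authors made with GCRMA (submitters' processing notes), whose version those notes do not give. They were used as deposited (0 missing values). Of 23416 probe sets, 20264 name 1 gene, 995 several and 2099 none, and 58 are controls. For each gene, the probe set of highest mean was taken among those at log2 4 or more in at least 3 arrays. Symbols came from RefSeq through Entrez IDs for 20254 probe sets.

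The main test was limma 3.58.1 under R 4.3.3 (group means, lmFit, and eBayes with a trend) on 17 arrays, with 11 residual degrees of freedom, and p-values were adjusted by Benjamini-Hochberg over 10940 genes, with calls at an adjusted p under 0.05. Member probe sets were adjusted over 22359 probe sets. The pipeline was tested on simulated data. Arrays have no counts, so their number limits the precision. Replicate numbers did not pair the arrays (r of deviations over genes from -0.25 to 0.08), apart from replicate 3 of A375M2 PMEL and GFP (r = -1).

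The 10 genes and the lists were chosen with earlier results of these data known. One family list, counted in the totals over families, is not reported here. Named are the 10 genes, PMEL, FHL2 and NFYA, the nearest measured neighbours, up to 3 called genes with the largest change per family list, genes between or beside the 10 in rank, and the 3 genes most correlated with UTS2 and ARHGAP20. EDNRB and the marker genes named lie outside it and were picked with their values known. Figures were made in Python 3.11.15 with matplotlib 3.10.9.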

Additional observations from a re-analysis of the deposited data

How the results depend on the processing

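Alternatives were a floor at log2 4, median centring, no filter, other probe sets, variance models, array weights, a replicate block, all 18 arrays, only the groups compared, a 2-fold threshold, and each array left out in turn. With the floor, 1 of 10 genes passed between A375M2 shFHL2 and shNFYA. With the 2-fold threshold, 3 of 10 passed in C32, 0 between the shRNA arms, 4 family genes and 0 neighbours. Over 6 group means, 2 of the 6 genes most like UTS2 and ARHGAP20 were shared with the 17-array list. Leaving out each array gave 4 to 5 genes in C32, 3 to 3 between the shRNA arms, 6 to 6 between the lines, 33 to 41 family genes and 8 to 10 neighbours. All 10 differences kept their direction in PMEL against GFP, and the 25 differences of at least 2-fold against A375M2 GFP became 22 with the floor, which set LY75 to 0 in all 3 comparisons. With the replicate block, 5, 3 and 6 genes passed in these 3 comparisons, 37 family genes and 9 neighbours. The numbers did not pair the arrays, apart from replicate 3 of A375M2 GFP and PMEL. Without replicate 3 of A375M2 GFP and PMEL, 4, 3 and 6 genes passed, 31 family genes and 8 neighbours. A block for array sets, added after the data were seen, gave 4, 3 and 6, 35 and 9. The gene lost was EMX2. No alternative reversed a direction. By the probe set taken for each gene, signals under log2 4 limit 8 of the 10 genes in both A375M2 shRNA arms. They limit 4 in C32 GFP and 5 in C32 shFHL2. The number of arrays limits the precision throughout.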
